A study of Mus musculus with 7 samples.

Results

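A total of 33 genes were expressed in wild type mouse thymus and were at a lower level in thymus of mice homozygous for the loss of Ikaros zinc finger 4 (ZnF4-/-). They were chosen on these values. A member averaged 2 RPKM or more in the 3 wild type libraries, and its higher ZnF4-/- library was at most 0.6 times its lowest wild type library. RPKM is the number of reads over the exons of a gene corrected for the length of the exons and for the number of mapped reads. The table listed 16734 genes, of which 9326 had a wild type mean of at least 2 RPKM, and 36 of these, or 0.386%, met both conditions. Of 4 genes left out by name (Ly6d, Ly6k, Gbp8 and Il12rb1) 3 had met them, which leaves the 33. Since the choice used the ZnF4-/- and wild type values, the difference between those groups is given for the members as a description, with no test.

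Polyadenylated RNA was sequenced from cell suspensions of whole thymus of mice aged 4 weeks. There were 3 wild type libraries (strain C57BL/6, replicates 1, 2A and 2B), 2 libraries of the germline mutant Ikaros ZnF1-/- and 2 of Ikaros ZnF4-/- (replicates 1 and 2 each), homozygous for loss of DNA-binding finger 1 or finger 4. Replicate 1 of each group was read as 76 bp and the others as 50 bp. The labels give no strain for the mutants and do not say whether replicates are separate animals or pools, so a p measures only the spread between these libraries.

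Ikaros, encoded by Ikzf1, is a zinc finger transcription factor that lymphoid cells need for their development, and its loss in mice leads to T cell leukaemia. Its central fingers contact a GGGAA core in DNA, while the outer fingers, 1 and 4, modulate which sites are bound. Most cells of a thymus are double-positive (DP) thymocytes, which carry both CD4 and CD8; they arise from double-negative (DN) progenitors and mature into single-positive (SP) T cells.

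Values are listed below in the order wild type 1, 2A and 2B, then ZnF1-/- 1 and 2, then ZnF4-/- 1 and 2. The median member stood at 35.5% of its wild type mean in ZnF4-/-, with a range of 19.7% to 54.4%. The median over the 9326 genes was 95%. The median member was at 36.7% within the 76 bp libraries and at 34.2% within the 50 bp libraries. In whole tissue, fewer cells of a type and less RNA per cell cannot be told apart. The members were of moderate abundance, with a median wild type mean of 6.58 RPKM against 11.6 RPKM over the 9326 genes. Of the 33, 10 had a wild type mean of 2 to 5 RPKM, 12 of 5 to 10, 8 of 10 to 20 and 3 of 20 or more. By accession 28 are coding and 5 non-coding.

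**Figure D1:**
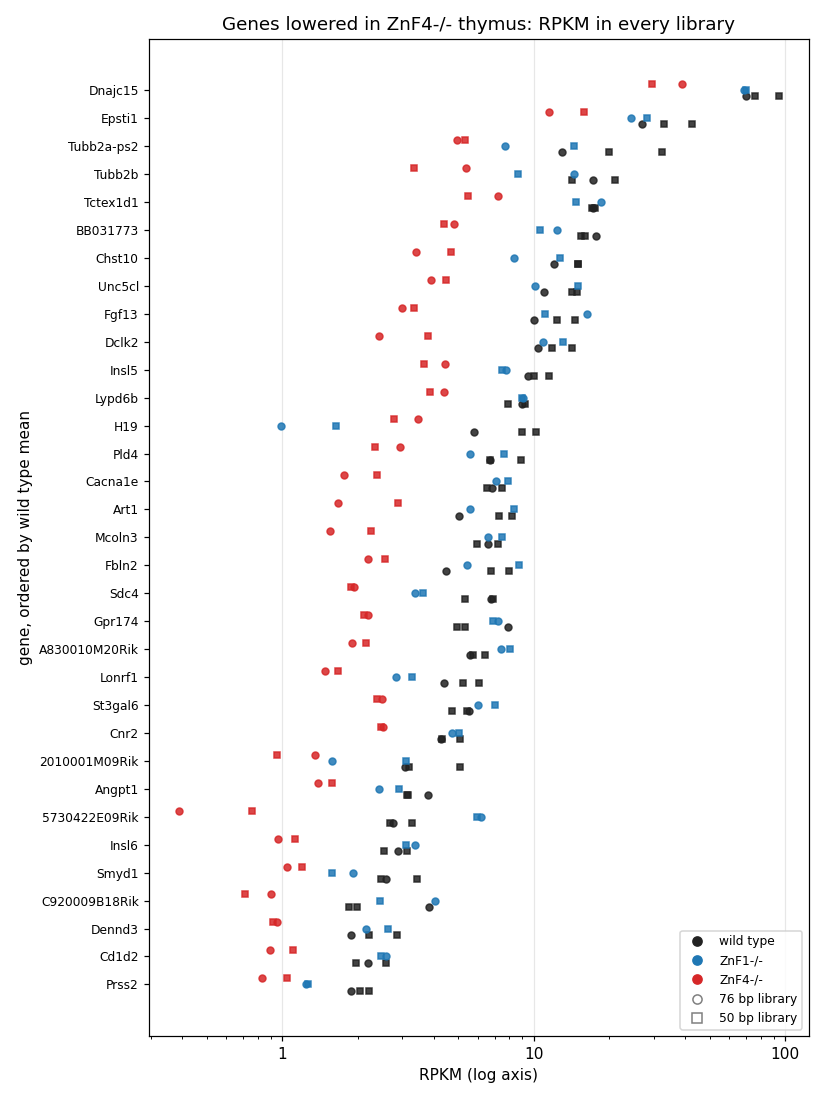
RPKM of the 33 genes (rows, ordered by wild type mean) in each of the 7 libraries on a log axis, coloured by genotype, with circles for 76 bp and squares for 50 bp libraries. Every ZnF4-/- point lies left of every wild type point, as the choice requires, and the ZnF1-/- points of 21 genes overlap the wild type range.

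The libraries differed in ways that the genotype does not set. Sex goes with read length: the 76 bp libraries held 90.6 to 109 RPKM of the female-specific RNA Xist, and the 50 bp libraries only 0.01 to 0.03. Total reads are not given. For the 76 bp libraries the spacing of low values gave best-fit depths of 20164000 reads in wild type, 14276000 in ZnF1-/- and 6300000 in ZnF4-/-. About 50.2% of low values in ZnF4-/- 1 fell on such steps, where the width of the steps alone covers 6.05%. At that depth the members rest on an estimated 4 to 161 reads in ZnF4-/- 1, with a median of 37, and 8 of them on fewer than 20. The depth of the 50 bp libraries could not be determined.

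Of the 31 members with a position in the annotation, 7 stood directly beside another member among the genes of the table, in 4 adjacent pairs. Position played no part in the choice, but the same share over all genes was not determined, so the count is only a description. The longest run is on chromosome 4 (build mm9, as are all gene positions here), where 3 members follow each other. Tctex1d1 (102658984 to 102678199, plus strand) encodes a protein related to dynein light chains. BB031773 (102676711 to 102684570, minus strand) is a non-coding RNA, and Insl5 (102690477 to 102699447, minus strand) encodes a peptide hormone of the relaxin family. Tctex1d1 and BB031773 run in opposite directions and share 1454 exon bases. The strand used in counting is not stated, so reads over those bases cannot be assigned to either gene. Tctex1d1 and BB031773 may thus not have met the rule independently of each other.

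On chromosome 14, Dnajc15 (78226024 to 78274724, minus strand) and Epsti1 (78304046 to 78397975, plus strand) point away from each other, with 29.3 kb between them. Dnajc15 encodes a co-chaperone of the mitochondrial inner membrane, and Epsti1 an interferon-inducible protein. The remaining adjacent pair is Dclk2, a kinase gene, and Cd1d2 on chromosome 3. The promoter sequences of 6 of the 7 adjacent members are shown because these genes stand side by side. They come from RefSeq (build GRCm38.p6) and cover up to 250 bases before and 50 after a start site, 5′ to 3′ on the strand of the gene. Capitals mark TGGGAA or its reverse complement TTCCCA, the core recognised by Ikaros proteins. The windows are chr4:102978453-102978702 (plus) for Tctex1d1, chr4:103011916-103012215 (minus) for BB031773, chr4:103027272-103027521 (minus) for Insl5, chr14:77903989-77904238 (plus) for Epsti1, chr14:77874918-77875167 (minus) for Dnajc15 and chr3:86920885-86921134 (minus) for Dclk2.
Tctex1d1: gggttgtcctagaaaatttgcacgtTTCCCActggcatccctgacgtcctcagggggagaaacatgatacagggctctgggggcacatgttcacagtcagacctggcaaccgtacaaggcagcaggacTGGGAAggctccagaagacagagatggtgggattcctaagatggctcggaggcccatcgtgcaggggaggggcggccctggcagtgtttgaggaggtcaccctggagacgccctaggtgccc
BB031773: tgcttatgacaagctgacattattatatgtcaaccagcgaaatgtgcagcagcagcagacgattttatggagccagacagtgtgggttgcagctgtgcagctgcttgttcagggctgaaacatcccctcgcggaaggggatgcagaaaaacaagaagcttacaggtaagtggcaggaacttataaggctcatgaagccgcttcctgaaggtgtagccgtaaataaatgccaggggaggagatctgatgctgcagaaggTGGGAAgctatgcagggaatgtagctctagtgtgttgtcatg
Insl5: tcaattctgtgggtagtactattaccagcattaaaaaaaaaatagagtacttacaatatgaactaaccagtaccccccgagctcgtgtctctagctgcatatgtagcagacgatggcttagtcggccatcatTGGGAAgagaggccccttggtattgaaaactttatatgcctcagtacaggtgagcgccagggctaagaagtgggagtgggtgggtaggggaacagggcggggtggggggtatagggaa
Epsti1: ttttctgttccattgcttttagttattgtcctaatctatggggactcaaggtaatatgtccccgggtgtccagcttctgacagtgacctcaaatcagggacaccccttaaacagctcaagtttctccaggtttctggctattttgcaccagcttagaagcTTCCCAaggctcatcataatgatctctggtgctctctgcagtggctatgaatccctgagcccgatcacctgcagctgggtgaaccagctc
Dnajc15: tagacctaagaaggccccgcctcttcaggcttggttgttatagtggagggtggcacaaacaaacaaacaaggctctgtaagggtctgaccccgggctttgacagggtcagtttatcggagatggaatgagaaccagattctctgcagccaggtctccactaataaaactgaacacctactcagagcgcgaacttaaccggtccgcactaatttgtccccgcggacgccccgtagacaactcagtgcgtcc
Dclk2: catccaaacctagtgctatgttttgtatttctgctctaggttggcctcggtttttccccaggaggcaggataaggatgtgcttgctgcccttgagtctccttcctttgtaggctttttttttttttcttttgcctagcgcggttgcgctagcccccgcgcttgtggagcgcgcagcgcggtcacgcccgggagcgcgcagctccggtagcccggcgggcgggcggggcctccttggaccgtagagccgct
The Tctex1d1 window holds the 6 letters at -225 and -122 from the start site, and that of BB031773 holds them at 9. The Insl5 window holds them at -118 and the Epsti1 window at -90. A further Insl5 window (chr4:103026729-103026978) and the Dnajc15 and Dclk2 windows hold none, which says only that these letters are not in those bases.

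RefSeq windows were found for 22 of the 33 members, 28 windows in all. TGGGAA, on either strand, was in 10 of the 28 (35.7%), against 25.6% of the 32841 windows of all genes. GGGAA with any flank, which TGGGAA contains, was in 67.9% of member windows and 62.7% of all. CAGCTG, an E-box, was in 17.9% and 16.3%, and the Runx core TGTGGT in 14.3% and 16.8%. ATCAAAG, a Tcf core, was in 3.57% and 3.73%. The E-box CACGTG was in 0 member windows and in 7.15% of all. These shares are descriptions of letters in a window and not of binding.

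Tctex1d1 was at 17.24, 17.09 and 17.58 RPKM in wild type, 18.48 and 14.67 in ZnF1-/-, and 7.21 and 5.48 in ZnF4-/-. BB031773 was at 17.76, 15.42 and 16.04 RPKM, then 12.35 and 10.62, then 4.82 and 4.38. Insl5 was at 9.52, 10.04 and 11.52 RPKM, then 7.79 and 7.48, then 4.43 and 3.66. Both ZnF4-/- libraries were thus low for all 3 genes, at 36.7%, 28% and 39% of the wild type means. In ZnF1-/-, Tctex1d1 spanned the wild type values while both libraries of BB031773 and of Insl5 lay below them.

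The next gene beyond Insl5 is Wdr78, which encodes a WD-repeat protein related to dynein intermediate chains and did not meet the rule. Wdr78 was at 31.18, 31.47 and 39.61 RPKM in wild type, 29.71 and 26.70 in ZnF1-/-, and 13.78 and 19.75 in ZnF4-/-. All ZnF4-/- values lay below all wild type values, and the log2 difference of -1.02 ± 0.20 (SE) had an adjusted p of 0.0507 in limma. With the replicate number as a block (the blocked fit, explained with the processing) Wdr78 fell (adjusted p = 0.00722). On the other side, Sgip1 was at 0.41 to 0.62 RPKM in wild type, 1.13 and 1.17 in ZnF1-/- and 0.35 and 0.38 in ZnF4-/-, too low to be tested.

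Dnajc15 was the most abundant member, at 70.02, 94.05 and 75.60 RPKM in wild type, 68.49 and 69.61 in ZnF1-/-, and 39.01 and 29.56 in ZnF4-/-. Epsti1 was at 26.89, 42.53 and 33.06 RPKM, then 24.28 and 28.13, then 11.48 and 15.87. The ZnF4-/- means were 42.9% and 40% of wild type. The next gene of the table beyond Epsti1, 279 kb away, went the other way. Tnfsf11, which encodes the cytokine RANKL that drives maturation of medullary thymic epithelium, was at 1.24, 1.38 and 1.46 RPKM in wild type, 0.72 and 0.86 in ZnF1-/-, and 3.95 and 4.88 in ZnF4-/-. This rise of 1.40 ± 0.18 log2 units passed the test (adjusted p = 0.00768).

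On chromosome 3, 65.7 kb separate Dclk2 (86590073 to 86724803, minus strand) from Cd1d2 (86790508 to 86793455, plus strand). Cd1d2 belongs to the CD1 family of lipid antigen presenting molecules. It was at 2.19, 2.58 and 1.96 RPKM in wild type, 2.58 and 2.48 in ZnF1-/-, and 0.89 and 1.10 in ZnF4-/-. Cd1d1, its neighbour and close copy, was at 10.74, 11.51 and 10 RPKM in wild type, 12.49 and 11.14 in ZnF1-/- and 9.06 and 8.5 in ZnF4-/-. The Cd1d1 values in ZnF4-/- were lower than in wild type without passing the test (log2 difference -0.28 ± 0.14, adjusted p = 0.632), and reads shared by the copies could have been split between them.

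**Figure D2:**
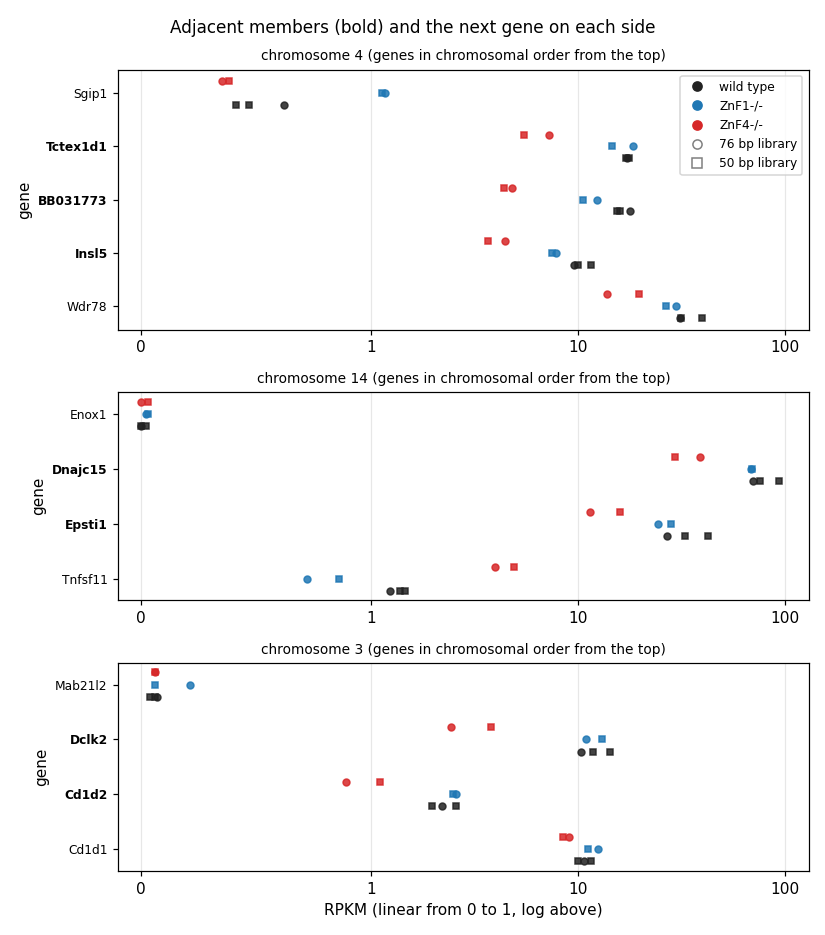
RPKM in each library (linear from 0 to 1 and log above) for the adjacent members, in bold, and the next gene of the table on each side, in 3 panels by chromosome. Wdr78 at 13.78 and 19.75 RPKM in ZnF4-/- lies below its wild type points, Tnfsf11 lies above, and Cd1d1 lies close to its wild type points.

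Over all members, 54 genes stood next to a member without being one. Next here means the nearest non-member of the table on each side, at any distance, with gaps of 0 to 1671 kb. Of the 54, 34 were expressed highly enough to be tested in ZnF4-/- against wild type. In limma 1 of the 34 rose (Tnfsf11) and 0 fell, which is 2.94% against 2.54% of all 10498 genes tested. Without adjustment, 8 were lower and 2 higher at a p under 0.05, which 3.11% of all genes reached with lower and 7.01% with higher values. In the blocked fit 6 fell and 3 rose, or 26.5% against 8.22% of all genes. Those that fell were Wdr78, Tubb2a, Glul, Ephx4, Hdac11 and Itm2a, and those that rose were Tnfsf11, Ier5 and Slpi. Hdac11, which encodes a histone deacetylase, fell by 0.74 log2 units in that fit. It was at 0.76 to 1.48 RPKM in wild type, 1.80 and 2.71 in ZnF1-/-, and 0.23 and 0.65 in ZnF4-/-. Glul and Ier5 lie 483 kb and 370 kb from the member Cacna1e. Mir675, among the 34, lies within the member H19 and holds reads of it. Tubb2a may share reads with the members Tubb2b and Tubb2a-ps2. The neighbour counts are thus not fully apart from the values that chose the members.

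Several members encode parts of, or proteins that bind, microtubules. Dclk2, a doublecortin-like kinase that binds microtubules, was at 10.36, 14.25 and 11.79 RPKM in wild type, 10.93 and 13.10 in ZnF1-/-, and 2.42 and 3.78 in ZnF4-/-. Fgf13 (chromosome X, 56315322 to 56821248) encodes an intracellular relative of the fibroblast growth factors that binds sodium channels and microtubules. Its values were 10.06, 12.36 and 14.58 RPKM, then 16.28 and 11.05, then 2.98 and 3.35. Both genes were at 25.5% and 25.7% of wild type in ZnF4-/-, and both overlapped wild type in ZnF1-/-.

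Tubb2b (chromosome 13, 34218877 to 34222223), a beta-tubulin gene, was at 17.26, 21.07 and 14.19 RPKM in wild type, 14.41 and 8.68 in ZnF1-/-, and 5.36 and 3.35 in ZnF4-/-. The pseudogene Tubb2a-ps2 was at 12.96, 32.23 and 19.98 RPKM, then 7.65 and 14.40, then 4.95 and 5.35. These copies are nearly identical to each other and to Tubb2a, so reads may have been assigned to the wrong copy and the separate values are uncertain. Tubb2a, next to Tubb2b, was at 23.33, 33.11 and 23.89 RPKM in wild type, 24.75 and 20.76 in ZnF1-/- and 16.80 and 11.91 in ZnF4-/-. Its ZnF4-/- values lay below all wild type values, with a log2 difference of -0.88 ± 0.22 that did not pass (adjusted p = 0.129) and passed in the blocked fit (0.0268). The main tubulin gene of the tissue by level, Tubb5, was at 497.34 to 708.82 RPKM in wild type and at 694.98 and 552.73 in ZnF4-/-, a log2 difference of 0.04 ± 0.24.

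Channels and receptors of the membrane formed a further group. Cacna1e (chromosome 1, 156239649 to 156573049), the pore subunit of R-type calcium channels, was at 6.80, 7.49 and 6.52 RPKM in wild type, 7.09 and 7.91 in ZnF1-/-, and 1.76 and 2.37 in ZnF4-/-. Mcoln3 (chromosome 3, 145780423 to 145804770), a cation channel of endosomes and lysosomes, was at 6.57, 5.94 and 7.23 RPKM, then 6.57 and 7.49, then 1.55 and 2.25. Both were below 30% of wild type in ZnF4-/- (29.8% and 28.9%) and within or above the wild type range in ZnF1-/-. Their relatives Cacna1d, Mcoln1 and Mcoln2 did not pass in ZnF4-/-, with log2 differences of 0.38, 0.10 and -0.26.

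Sdc4 (chromosome 2, 164249747 to 164269387), a heparan sulfate proteoglycan of the cell surface, was at 6.76, 6.86 and 5.32 RPKM in wild type, 3.38 and 3.63 in ZnF1-/-, and 1.93 and 1.88 in ZnF4-/-. Here the 3 genotypes did not overlap, with ZnF1-/- in between at 55.5% and ZnF4-/- at 30.2% of wild type. The related Sdc3 was at 2.40 to 3.48 RPKM in wild type and at 3.54 and 4.93 in ZnF4-/-, without passing (adjusted p = 0.637). Unc5cl (chromosome 17, 48594226 to 48679039), a membrane protein with a death domain, was at 11.01, 14.81 and 14.14 RPKM, then 10.16 and 15.00, then 3.92 and 4.47. Its ZnF1-/- libraries lay on either side of the wild type range.

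The G protein-coupled receptor genes were Gpr174, for lysophosphatidylserine, and Cnr2, the cannabinoid receptor of immune cells. Gpr174, on the X chromosome, was at 7.89, 4.97 and 5.31 RPKM in wild type, 7.20 and 6.90 in ZnF1-/-, and 2.20 and 2.11 in ZnF4-/-. Cnr2 was at 4.29, 5.11 and 4.33 RPKM in wild type, 4.72 and 5.05 in ZnF1-/-, and 2.51 and 2.47 in ZnF4-/-. At 54.4% of wild type, Cnr2 was the least lowered member. Lypd6b, of the Ly6 family of small surface proteins, was at 9.01, 9.27 and 7.93 RPKM, then 9.1 and 9.0, then 4.38 and 3.88. Its ZnF1-/- values lay inside the wild type range.

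Among secreted products, Insl6, a further relaxin-like peptide, was at 2.54 to 3.14 RPKM in wild type, 3.38 and 3.10 in ZnF1-/- and 0.96 and 1.12 in ZnF4-/-. Insl3, of the same family and not a member, was at 5.42 to 6.86 RPKM in wild type and at 7.44 and 11.39 in ZnF4-/-, and did not pass (log2 difference 0.56, adjusted p = 0.357). The family therefore held members low in ZnF4-/- and a gene with higher values there. Angpt1, a ligand of the endothelial receptor Tie2, was at 44% of wild type in ZnF4-/-, and Fbln2, an extracellular matrix protein, at 37%. Prss2 (chromosome 6, 41471786 to 41475078) encodes a trypsin, and its gene lies among those of the T cell receptor beta locus. It was at 1.88, 2.22 and 2.03 RPKM in wild type, 1.24 and 1.27 in ZnF1-/-, and 0.83 and 1.04 in ZnF4-/-.

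**Figure D3:**
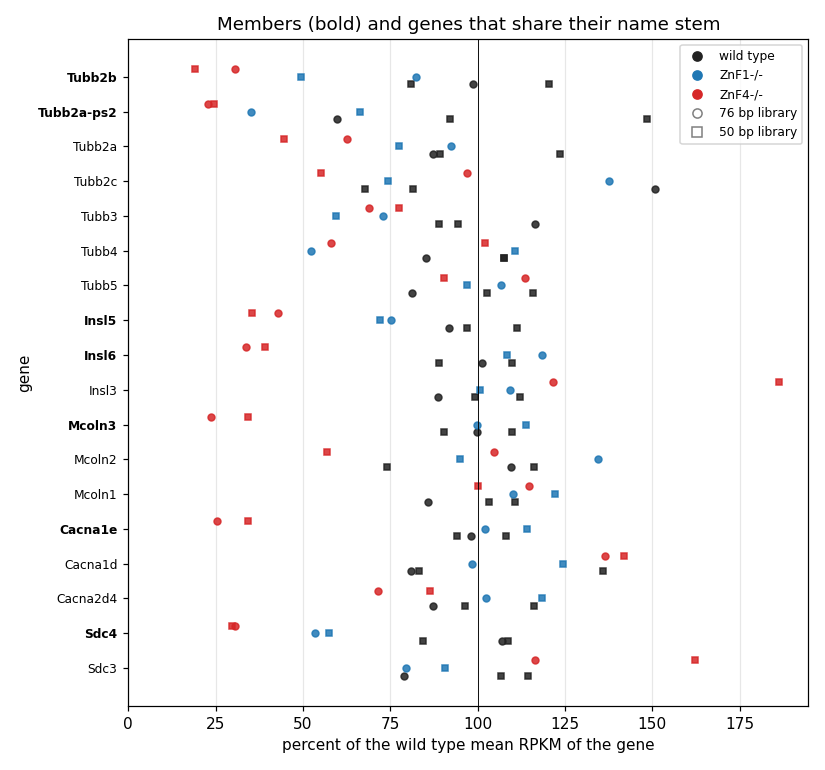
Level in each library as a percent of the wild type mean of the gene (vertical line at 100), for members, in bold, and for genes that share their name stem. The ZnF4-/- points of the members lie left of the wild type points, while those of Tubb5 and Mcoln1 lie near 100 and those of Insl3 and Sdc3 lie above it.

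Relatives of the members were also read as a set. Of 65 tested genes that share a name stem with a member, limma called 0 in ZnF4-/- against wild type, and without adjustment 1 was lower and 3 were higher at a p under 0.05. The blocked fit called 3 lower (Dnajc6, Tubb2a and Tubb2c) and 1 higher (Prss34), or 6.15% against 8.22% of all genes. As said above, Tubb2a may share reads with the members Tubb2b and Tubb2a-ps2. Prss34, a mast cell and basophil protease, was at 0.04 to 0.22 RPKM in wild type and at 8.70 and 1.62 in ZnF4-/-.

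Enzymes of the Golgi and the cell surface were also present. Chst10 (chromosome 1, 38920722 to 38955005), which sulfates the HNK-1 glycan, was at 12.04, 14.94 and 15.02 RPKM in wild type, 8.35 and 12.66 in ZnF1-/-, and 3.41 and 4.67 in ZnF4-/-. St3gal6, a sialyltransferase, was at 5.52, 4.73 and 5.44 RPKM, then 5.98 and 7.02, then 2.50 and 2.38. Chst10 overlapped wild type in ZnF1-/-, whereas both ZnF1-/- values of St3gal6 lay above wild type. St3gal6 shares 1603 exon bases with Dcbld2 on the opposite strand, and the strand used in counting is not stated. Dcbld2 was listed at 0.08 to 0.17 RPKM over the 7 libraries, far below St3gal6 in each. Art1, an ADP-ribosyltransferase anchored at the surface, was at 33.4% of wild type in ZnF4-/- and at 102% in ZnF1-/-.

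Members with roles inside the cell included Lonrf1 (chromosome 8, 37279118 to 37312570), a RING finger protein. Lonrf1 was at 4.41, 6.07 and 5.22 RPKM in wild type, 2.83 and 3.29 in ZnF1-/-, and 1.48 and 1.67 in ZnF4-/-. As with Sdc4, the genotypes did not overlap and ZnF1-/- lay in between. Pld4, an endolysosomal nuclease, was at 35.5% of wild type in ZnF4-/- and 88.8% in ZnF1-/-. Dennd3, an activator of Rab GTPases, was at 1.88, 2.87 and 2.22 RPKM in wild type, 2.15 and 2.63 in ZnF1-/-, and 0.95 and 0.92 in ZnF4-/-. Smyd1, a methyltransferase known from muscle, was at 2.58, 3.44 and 2.48 RPKM, then 1.91 and 1.57, then 1.04 and 1.2. Smyd1 was below wild type in both mutants.

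The gene listed as 2010001M09Rik, now Mzb1, encodes a chaperone of the endoplasmic reticulum known from B cells and plasma cells. It was at 3.07, 5.08 and 3.20 RPKM in wild type, 1.58 and 3.10 in ZnF1-/-, and 1.35 and 0.95 in ZnF4-/-. The ZnF1-/- library at 3.10 touched the wild type range. The summed level of 8 B cell genes was 21 to 26.7 RPKM in wild type, 27.1 to 36.6 in ZnF1-/- and 16.7 to 20.7 in ZnF4-/-, and its part in the Mzb1 values was not tested. A830010M20Rik (chromosome 5, 107924917 to 108009615) was at 5.60, 6.38 and 5.75 RPKM in wild type, 7.39 and 8.04 in ZnF1-/-, and 1.90 and 2.15 in ZnF4-/-. It was above wild type in one mutant and below it in the other.

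Of the 5 non-coding members, BB031773 and Tubb2a-ps2 are described above. C920009B18Rik was at 3.83, 1.98 and 1.85 RPKM in wild type, 4.04 and 2.44 in ZnF1-/-, and 0.90 and 0.71 in ZnF4-/-. Its 76 bp libraries were higher than its 50 bp libraries in every genotype. The long non-coding RNA 5730422E09Rik, now Mm2pr (chromosome 5, 149931141 to 149995639, minus strand), had the lowest ratio of all members. It was at 2.76, 3.29 and 2.69 RPKM in wild type, 6.17 and 5.95 in ZnF1-/-, and 0.39 and 0.76 in ZnF4-/-. The ZnF4-/- mean was 19.7% of wild type and the ZnF1-/- mean 208%, so the mutants lay on opposite sides of wild type with no overlap.

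H19 (chromosome 7, 149761434 to 149764048), an imprinted long non-coding RNA and the host of Mir675, had the reverse order. H19 was at 5.80, 8.97 and 10.23 RPKM in wild type, 0.99 and 1.64 in ZnF1-/-, and 3.45 and 2.78 in ZnF4-/-. It was the only member whose ZnF1-/- values lay below its ZnF4-/- values, with means of 15.8% and 37.4% of wild type. Mir675, whose 84 bases lie within H19 so that the reads are shared, was at 4.66, 13.46 and 11.88 RPKM, then 2.83 and 1.79, then 3.61 and 1.72.

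The ZnF1-/- libraries were not used to choose the members, although they are compared here with the same wild type libraries. The median member was at 95.8% of wild type in ZnF1-/-, against 97.7% over the 9326 genes, and the range was 15.8% to 208%. The median log2 difference was -0.07 over the members and -0.02 over the 10498 genes tested. All 33 members were tested. A mean within 80% to 125% of wild type was found for 17 members, a lower one for 13 and a higher one for 3. In 32 of 33 members both ZnF1-/- libraries lay above both ZnF4-/- libraries, where 17% of all 9326 genes show that order; the choice of low ZnF4-/- values favours it.

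**Figure D4:**
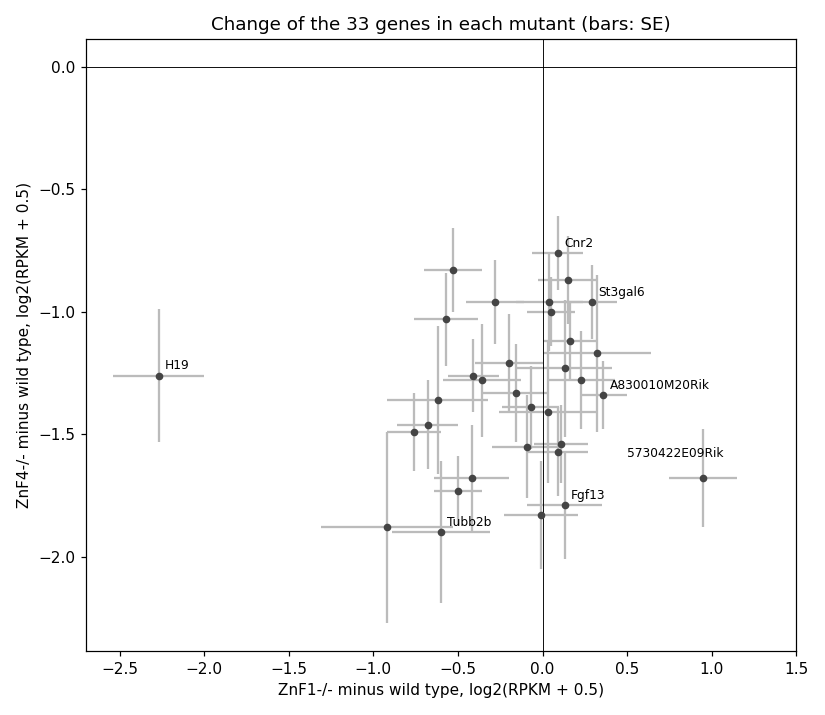
Difference from wild type in log2(RPKM + 0.5) of each member in ZnF1-/- (horizontal) and in ZnF4-/- (vertical), with bars of 1 SE. The vertical values, all below 0 by the choice of genes, run from -1.90 to -0.76, while the horizontal values lie around 0 except for H19 at -2.27 and 5730422E09Rik at 0.95; the axes share the wild type libraries.

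Both ZnF1-/- libraries lay below every wild type library for 9 members (27.3%), compared with 6.73% of the 9326 genes. These were BB031773, Sdc4, Lonrf1, Insl5, Smyd1, Angpt1, Prss2, Dnajc15 and H19. The rule also asks that the lowest wild type library be high beside ZnF4-/-. The choice therefore favours this and other counts of members lower in ZnF1-/-, by an amount that was not determined. Both ZnF1-/- libraries lay above every wild type library for 3 members (9.09%), compared with 5.63% of the genes, and 21 overlapped wild type. With ZnF1-/- replicate 2 left out, 15 members lay below in replicate 1 alone. That condition is easier to meet, and its share over all genes was not determined, so the 15 cannot be set against the 9. Applied to ZnF1-/- in place of ZnF4-/-, the rule that chose the members found 15 genes (0.161%), of which only H19 is a member.

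No member passed in ZnF1-/- against wild type in limma (0 lower against 0.00953% of all genes, 0 higher against 0.0762%), while an unadjusted p under 0.05 was reached by 7 with lower values (1.72% of all genes) and 2 with higher values (2.12%). H19 came closest, with a log2 difference of -2.27 ± 0.27 and an adjusted p of 0.0524. In the blocked fit H19 fell by 2.21 log2 units (adjusted p = 0.00412) and 5730422E09Rik rose by 0.98 (adjusted p = 0.0495). These are 1 lower and 1 higher of 33 members, where 0.305% of all genes passed lower and 0.572% higher. Without wild type replicate 1, H19 also passed without the block (adjusted p = 0.0222). Over 15 alternatives its adjusted p ran from 0.00412 to 0.375, and it passed in 4.

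The thresholds separate members from close neighbours by little. The members just inside the ratio of 0.6 were Cnr2 at 0.585, Epsti1 at 0.590 and H19 at 0.595, and just outside were Ralb at a ratio just over 0.6, Raver2 at 0.602 and Tcte1 at 0.603. The Ral GTPase gene Ralb was at 8.95, 13.06 and 10.28 RPKM in wild type, 4.01 and 4.70 in ZnF1-/-, and 4.82 and 5.37 in ZnF4-/-. Raver2 was at 1.76, 2.27 and 2.14 RPKM, then 1.78 and 1.95, then 0.38 and 1.06, and Tcte1 at 3.50, 4.07 and 3.69, then 3.28 and 3.11, then 2.11 and 1.66. By wild type mean, Prss2 at 2.04, Cd1d2 at 2.24 and Dennd3 at 2.32 RPKM were just inside, and Ndufs5 at 1.96, Mir25 at 1.95 and Nrarp at 1.64 just outside. The count depends on the libraries used: without wild type replicate 1 the conditions were met by 78 genes, without ZnF4-/- replicate 1 by 74 and without ZnF4-/- replicate 2 by 114.

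Lists of cell type markers and the Ikaros gene family were read as well, and none of them holds a member. Of 84 list genes tested in ZnF4-/- against wild type, 6 rose in limma and 0 fell, or 7.14% against 2.54% over the table. An unadjusted p under 0.05 was reached by 5 with lower values (3.11% over the table) and 20 with higher values (7.01%). Those that rose were Cldn4, Ikzf3, Ikzf4, Kit, S1pr1 and Slfn1. Without the Ikaros family, a count chosen after the values were seen, 4 of 79 marker genes rose (5.06%). In the blocked fit 6 of the 84 fell and 18 rose (28.6% against 8.22%), or 6 and 14 without that family (25.3%). The summed level of 14 DP thymocyte genes was 3925 to 4796 RPKM in wild type and 3098 to 3717 in ZnF4-/-, with no overlap and a mean of 76.3% of wild type. None of the 14 passed in limma, while 3 were lower at an unadjusted p under 0.05, and those called lower in the blocked fit included Cd8a and Ccr9. The coreceptor gene Cd8a was at 498.87, 583.54 and 612.73 RPKM in wild type, 636.41 and 622.71 in ZnF1-/-, and 396.79 and 386.04 in ZnF4-/-. The summed DP level in ZnF1-/- was 98.1% of wild type.

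Other lists differed by varying amounts. The 12 mature SP genes summed to 300 to 379 RPKM in wild type and 368 to 474 in ZnF4-/-, which overlap. Of these 12, 2 rose in limma (S1pr1 and Slfn1) and 0 fell. An unadjusted p under 0.05 was reached by 6 with higher and 0 with lower values. In the blocked fit 5 rose and 0 fell. Summed cycling genes were at 540 to 560 RPKM in wild type and 477 to 484 in ZnF4-/-, or 87.7%. Thymic epithelial genes summed to 13.6 to 18.8 RPKM in wild type and 37 to 39.2 in ZnF4-/-. Without Cldn4 the other 9 epithelial genes overlapped, at 5.37 to 6.9 and 4.95 to 7.68 RPKM. Dendritic cell genes were at 144% of wild type, and without Ccl22 the other 7 overlapped, at 5.66 to 7.16 and 6.36 to 7.03 RPKM. Among these, Siglech, a marker of plasmacytoid dendritic cells, was at 0.53 to 0.96 RPKM in wild type and 0.16 and 0.06 in ZnF4-/-. Its ZnF1-/- values were 1.32 and 0.75 RPKM. Cd209a was also lower in ZnF4-/-, while Itgax was higher, at 0.61 to 0.85 RPKM in wild type and 1.31 and 1.07 in ZnF4-/-. Siglech, Cd209a and Itgax were too low to be tested, and the rest of the 7 overlapped between the groups. Macrophage and myeloid genes were at 178 to 219 RPKM in wild type and 228 to 640 in ZnF4-/-. Without the neutrophil genes S100a8 and S100a9, which were high in ZnF4-/- 1 only, the other 9 were at 63.7 to 89 and 107 to 139 RPKM. These leading genes were taken out after their values were seen. Red cell genes were at 265% of wild type. Endothelial genes overlapped between the groups, at 29.6 to 41.9 and 37.9 to 42.2 RPKM. Fibroblast genes summed to 0.45 to 0.5 RPKM in wild type and 0.5 to 0.99 in ZnF4-/-, with Pdgfra at 0 in every library. Since members such as Dclk2, Tubb2b and Cacna1e are also known from neurons, 15 neural genes were read, and the 11 in the table summed to only 2.81 to 3.08 RPKM in wild type and 2.38 to 2.49 in ZnF4-/-. The part of these shifts in the levels of the members was not tested.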

How the data were processed

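Per the labels' protocols, polyadenylated RNA of whole thymus suspensions was read as single ends of 76 bp (replicate 1 of each group) or 50 bp. The deposited values are RPKM, which the authors made, per the series design text, by counting reads over exons in SeqMonk with the NCBI annotation of mm9, keeping 1 transcript per gene. The submitters' processing notes name TopHat and bedtools; versions and strand are not given in the sources used here. Exon lengths are those listed by the authors.

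The members and lists were chosen with earlier results of these data known. Values were transformed to log2(RPKM + 0.5), which understates folds of low genes, and genes averaging 1 RPKM or more across all 7 libraries (10498) entered limma 3.58.1 in R 4.3.3 (eBayes with trend, two-sided), in 1 fit of the 3 groups, with Benjamini-Hochberg adjustment and a threshold of 0.05. No scaling was added; median library shifts were -0.146 to 0.136 log2 units. Exact permutation of 3 against 2 libraries cannot give a p under 0.1, so none was run. Per the labels' protocols the replicate number goes with instrument and read length, and Xist shows that it goes with sex too, so the block cannot tell these apart. Deviations of same-numbered libraries from their group means correlated at 0.489 to 0.737 across genes in 8 pairs. In a group of 2 libraries the deviations mirror each other, so these pairs are not separate from one another. Because of these correlations, a blocked fit with the replicate number stands beside a result where it changes a call. Data for ZnF1-/- against wild type (10498 genes) were simulated from the blocked model, with its replicate effects and residual spread. On these data limma recovered 29% of changes of 1 log2 unit and 92% of changes of 2, with 0 false calls. The blocked fit recovered 99% of each, with 18 false calls. That setting favours the blocked fit, so the figures do not show which fit suits the real libraries.

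Gene positions came from the annotation of mm9 and were matched by symbol for 16179 of 16734 genes. Values in every library are given for the 12 members with the lowest ratio, the 12 with the highest wild type mean, those at the thresholds, those that passed in ZnF1-/- in either fit, and the 5 farthest above and below wild type in ZnF1-/-; neighbours and relatives are named where called or where they share a name stem with such members.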

Additional observations from a re-analysis of the deposited data

Results flagged for a closer look

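For 3 members both ZnF1-/- libraries lay above and both ZnF4-/- libraries below every wild type library. The ZnF1-/- difference from wild type was 0.95 log2 units for 5730422E09Rik, 0.36 for A830010M20Rik and 0.29 for St3gal6. The difference between the mutants was not tested, because the ZnF4-/- values chose these genes. In the unblocked fit none of the 3 passed in ZnF1-/- (adjusted p of 0.34 for 5730422E09Rik and 1 for the others).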

How the results depend on the processing

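The median ZnF1-/- difference of the members stayed within replicate spread under all 15 alternatives (-0.21 to 0.00 when 1 library was left out), and no direction reversed. Members called in ZnF1-/- numbered 1 after scaling libraries to a common median and 1 after quantile normalization, and 0 to 1 when 1 library was left out. Genes called in ZnF4-/- (267) numbered 171 with a mean of at least 2 RPKM, 596 without a filter, 130 with wild type 2A and 2B averaged, and 44 to 253 with 1 library left out, the lowest without ZnF4-/- replicate 2. Calls among neighbours (1) became 2 with median scaling, 2 without a filter, 3 with quantile normalization and 0 to 2 with 1 library left out. Calls among relatives (0) became 1 with median scaling, 1 with quantile normalization and 0 to 1 with 1 library left out. List genes called (6) became 10 with median scaling, 12 with quantile normalization, 0 with 2A and 2B averaged and 0 to 6 with 1 library left out. The cause of these shifts was not tested.

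With the replicate block, calls numbered 2 among members in ZnF1-/-, and in ZnF4-/- 863 over all genes, 9 among neighbours, 4 among relatives and 24 among list genes. The rule found 21 members at a ratio of 0.5, 63 genes at 0.7, and 34 to 114 with 1 library left out. Members with every remaining ZnF1-/- library below every remaining wild type library numbered 9 to 15 with 1 library left out. The 15, and the 11 without ZnF1-/- replicate 1, rest on 1 ZnF1-/- library. H19 passed in ZnF1-/- under 4 of 15 alternatives, the block, the fit without wild type replicate 1, median scaling (adjusted p = 0.0163) and quantile normalization (0.0241), and not under the other 11, with adjusted p from 0.00412 to 0.375 over all 15. Over its leave-one-out fits its log2 difference was -2.53 to -2.01. Few reads behind the low members in ZnF4-/- replicate 1 limit their precision there.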

Other observations

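The mirror image of the rule, with every wild type library at most 0.6 times the lower ZnF4-/- library, was met by 109 genes, compared with the 36 counted under the rule itself.

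Nrarp, a feedback inhibitor induced by Notch, fell just short of the wild type mean that the rule asks for. It was at 1.17, 2.07 and 1.67 RPKM in wild type, 2.01 and 2.53 in ZnF1-/-, and 0.62 and 0.49 in ZnF4-/-. Nrarp is in a marker list of Notch pathway and DN genes, and the other genes of that list went different ways. From that list, Notch1, Dtx1 and Hes1 were higher in both ZnF4-/- libraries than in every wild type library. Il2ra and Erg were lower, and the rest overlapped wild type, Notch3 and Ptcra among them. Notch1 was at 34.58, 63.22 and 49.58 RPKM in wild type and 82.52 and 92.99 in ZnF4-/-, and Dtx1, a Notch target, at 4.43, 9.40 and 8.38 RPKM and 18.89 and 13.40. Nrarp, Notch1 and Dtx1 did not pass in limma (adjusted p of 0.0987 for Nrarp, 0.356 for Notch1 and 0.326 for Dtx1). In the blocked fit Nrarp fell (adjusted p = 0.0227), and Notch1 (0.00871) and Dtx1 (0.0455) rose.

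The micro-RNA gene Mir25, also just short in wild type level, was at 1.95, 2.09 and 1.81 RPKM in wild type, 1.72 and 3.37 in ZnF1-/-, and 0.02 and 0.72 in ZnF4-/-. Reads were estimated for the members only, so the number of reads behind these low values was not determined. The values are given as a description.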
